A study of Mus musculus with 10 samples.

Results

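Ribosome biogenesis factors, the nucleolar proteins that transcribe, modify, cut and assemble the parts of the ribosome, were followed in naive mouse CD8+ T cells during the first 120 min of stimulation. The members were chosen by name: gene symbols that start with Nop, Nol, Utp, Rrp, Polr1, Gnl or Tsr followed by a digit, Nolc1, and a list of further symbols such as Ncl, Npm1, Fbl, Dkc1 and Bysl. This rule found 67 of the 12637 genes in the deposited table, and 66 of them passed the filter on low values. The rule uses names alone.

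A ribosome is made in the nucleolus. RNA polymerase I (Pol I) transcribes a long ribosomal RNA (rRNA) precursor, small nucleolar ribonucleoproteins (snoRNPs) of the box C/D kind guide the methylation and those of the box H/ACA kind the pseudouridylation of that RNA, and separate sets of factors cut and fold the parts that become the small and the large subunit. Resting lymphocytes make few ribosomes, and activated T cells enlarge the nucleolus and raise ribosome production before they divide.

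The cells came from spleens of female C57Bl/6 mice aged 6 weeks. They were enriched by negative selection, then sorted as CD8+ cells with high CD62L and low or no CD44. Ikaros-Zn4-/- mice are homozygous for a mutant of Ikaros, a lymphocyte transcription factor, named for zinc finger 4 of its DNA-binding domain; the labels give no cell type restriction for the mutation. WT mice were the controls, and the series asks how Ikaros acts on the genes that T cell receptor signalling induces. The cells were either lysed without stimulation (0 min) or held for 30 or 120 min on plate-bound antibodies to CD3 and CD28. Each genotype had 2 libraries at each of the first times and 1 library at 120 min. Nothing in the labels says that the libraries of a group came from separate mice, so p-values measure the spread between these libraries, which may be technical.

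Ikzf1, the gene of Ikaros, was listed at 206 to 263 RPKM in the 5 Ikaros-Zn4-/- libraries and 134 to 171 RPKM in the 5 WT libraries; these values cover the whole gene, not its zinc finger 4 part alone, and so do not check the genotype labels. Depths recovered from the steps of the deposited values were 4.50 to 13.3 M reads per library, so that 1 read on 1 kb of transcript stands for 0.075 to 0.222 RPKM (reads per kilobase of transcript, scaled to library size). In bulk libraries, fewer cells of a type and less RNA per cell cannot be told apart. All 6 defining CD8 T cell markers looked for were in the table, with a summed level of 3542 to 3722 RPKM in Ikaros-Zn4-/- and 2857 to 3275 RPKM in WT cells at 0 min, and of 1177 RPKM in Ikaros-Zn4-/- and 1100 RPKM in WT cells at 120 min. Deposited RPKM moved for most genes after stimulation: the median log2 change of all genes tested was -0.32 at 120 min and -0.13 at 30 min against 0 min. The log2 changes printed here were therefore computed on RPKM scaled by the median ratio, which sets them relative to the typical gene, while levels are deposited RPKM. The test was limma on log2(scaled RPKM + 1), with Benjamini-Hochberg adjustment over all 12203 genes tested. A change was called at an adjusted p under 0.05, and the adjusted p-values below are all from this test unless another is named.

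At 120 min against 0 min, over both genotypes, 30 of the 66 members tested rose and 11 fell. Among all genes tested, 29.9% rose and 29.9% fell, against 45.5% and 16.7% of the members. The median log2 change of the members was 0.29. All 3 nucleolar chaperones, 2 of 3 box C/D snoRNP proteins and 16 of 29 small subunit factors were among the rises, and none of the 4 box H/ACA snoRNP proteins was. The split depends on the scale. On deposited RPKM, 19 members were called higher and 19 lower, against 19.3% higher and 40.4% lower among all genes, and 19 rises and 10 falls were called with all 3 scalings tried. Deposited values of the 2 times did not overlap for 20 members that were higher at 120 min and 24 that were lower, where this held for 22.1% and 43.3% of all genes. Where a 120 min library was left out, here and below, changes at 120 min were those of the other genotype alone. With any of the 10 libraries left out, 21 of the rises and 6 of the falls were still called.

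**Figure D1:**
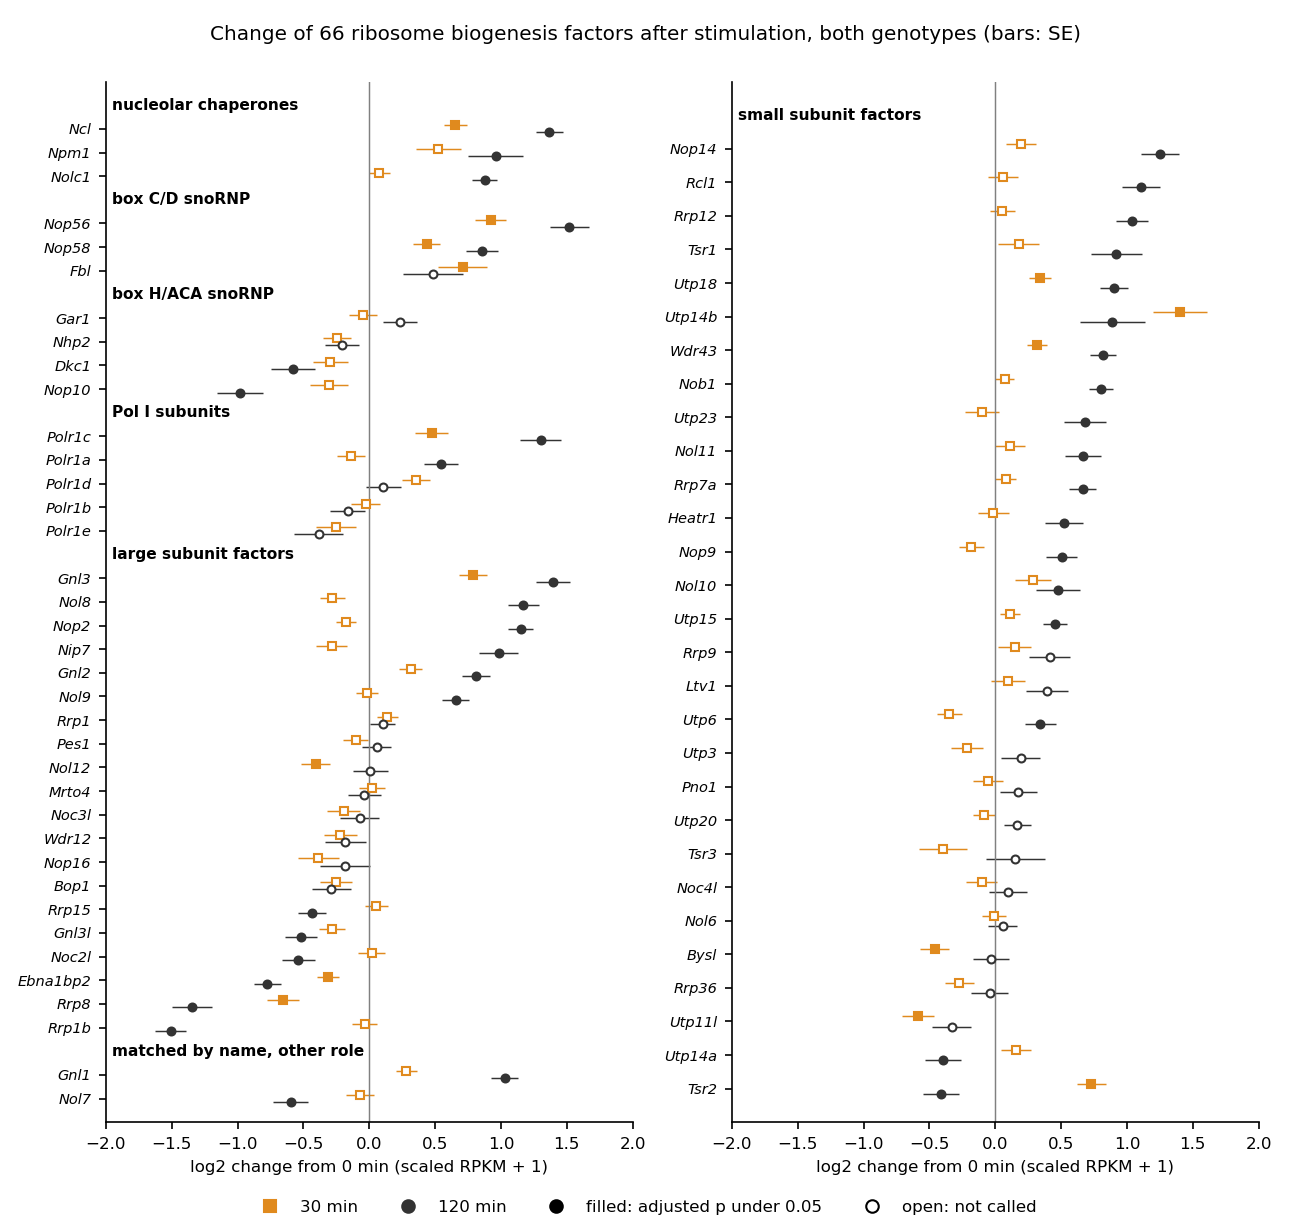
Log2 change (scaled RPKM + 1) of the 66 members tested at 30 min (squares) and 120 min (circles) against 0 min, mean of both genotypes with the SE as a bar, grouped by role; filled symbols passed an adjusted p of 0.05. Most filled circles of the chaperones, box C/D proteins and small subunit factors lie right of 0, and the large subunit factors are spread over both sides.

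All 3 nucleolar chaperones rose at 120 min. Ncl encodes nucleolin, an abundant RNA-binding protein of the nucleolus (chromosome 1, 86344719 to 86359400; gene positions are those of GENCODE M21 on GRCm38). Its level was 112 RPKM at 120 min, against 51.1 and 61.1 RPKM without stimulation, in Ikaros-Zn4-/- cells, and 86.4 RPKM against 40.8 and 48.8 RPKM in WT cells. Both 120 min libraries lay above all 4 libraries of 0 min, and the log2 change was 1.37 (SE 0.10, adjusted p = 7.12e-05). Nolc1, a chaperone of snoRNPs, had 62.7 RPKM at 120 min, against 42.0 and 39.8 RPKM without stimulation, in Ikaros-Zn4-/- cells, and 43.5 RPKM against 31.9 and 36.6 RPKM in WT cells. Its log2 change was 0.88 (SE 0.10, adjusted p = 0.000284). Npm1, which encodes the histone and ribosome chaperone nucleophosmin, had 78.3 RPKM at 120 min, against 43.4 and 57.6 RPKM without stimulation, in Ikaros-Zn4-/- cells, and 50.9 RPKM against 30.2 and 44.1 RPKM in WT cells. Its replicates lay far apart, and WT cells at 120 min were below 1 of the Ikaros-Zn4-/- libraries of 0 min. This was a log2 change of 0.96 (SE 0.21, adjusted p = 0.00669). It was not called on deposited RPKM, where it was 0.55 (adjusted p = 0.0977), nor without the Ikaros-Zn4-/- library of 120 min (adjusted p = 0.0557).

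Of the 3 box C/D snoRNP proteins, Nop56 and Nop58 rose at 120 min over both genotypes, and Fbl was not called. Nop56, a core protein of the particle (chromosome 2, 130274430 to 130279313), had 96.1 RPKM at 120 min, against 41.6 and 36.5 RPKM without stimulation, in Ikaros-Zn4-/- cells, and 75.9 RPKM against 40.0 and 37.8 RPKM in WT cells. This was the largest rise among the members called on the log2(scaled RPKM + 1) scale, which understates changes of low genes such as Utp14b (2.09 at 120 min with limma-voom, against 1.54 for Nop56), with a log2 change of 1.52 (SE 0.15, adjusted p = 0.000158). Its partner Nop58 had 15.9 RPKM at 120 min, against 8.43 and 10.4 RPKM without stimulation, in Ikaros-Zn4-/- cells, and 9.22 RPKM against 7.53 and 7.73 RPKM in WT cells. The WT library of 120 min lay between the 2 Ikaros-Zn4-/- libraries of 0 min, so the times overlapped on the deposited scale, and the log2 change was 0.85 (SE 0.12, adjusted p = 0.000931). Fbl encodes fibrillarin, the methyltransferase of the particle. It had 6.00 RPKM at 120 min, against 3.17 and 4.02 RPKM without stimulation, in Ikaros-Zn4-/- cells, and 3.21 RPKM against 5.71 and 3.01 RPKM in WT cells. The log2 change over both genotypes, 0.49 (SE 0.23), did not pass the test (adjusted p = 0.103). It was 0.98 in Ikaros-Zn4-/- cells and -0.01 in WT cells.

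Over both genotypes, none of the 4 box H/ACA snoRNP proteins rose at 120 min, and Nop10 and Dkc1 fell. Nop10, a small core protein of the particle, had 11.3 RPKM at 120 min, against 27.1 and 30.6 RPKM without stimulation, in Ikaros-Zn4-/- cells, and 9.71 RPKM against 25.8 and 31.1 RPKM in WT cells. Both 120 min libraries lay below every library of 0 min, and the log2 change was -0.98 (SE 0.18, adjusted p = 0.0027). Dkc1, the gene of the pseudouridine synthase dyskerin, had 9.15 RPKM at 120 min, against 18.9 and 15.0 RPKM without stimulation, in Ikaros-Zn4-/- cells, and 6.31 RPKM against 14.8 and 14.4 RPKM in WT cells. Its log2 change was -0.58 (SE 0.16, adjusted p = 0.0191), and the call was lost without the WT library of 120 min (adjusted p = 0.19) and without WT replicate 1 of 0 min (adjusted p = 0.0539). Nhp2 and Gar1 complete the particle. Their log2 changes were -0.21 (SE 0.13, adjusted p = 0.203) for Nhp2 and 0.23 (SE 0.13, adjusted p = 0.164) for Gar1. The genotypes differed in direction: Nhp2 changed by 0.12 in Ikaros-Zn4-/- and -0.53 in WT cells, and Gar1 by 0.64 and -0.18. On deposited RPKM Nhp2 was called lower as well, at -0.60 (adjusted p = 0.0101).

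Of the 5 Pol I subunits measured, Polr1c and Polr1a rose and none fell. Polr1c, a subunit that Pol I shares with Pol III, had 52.5 RPKM at 120 min, against 27.3 and 21.9 RPKM without stimulation, in Ikaros-Zn4-/- cells, and 35.8 RPKM against 17.6 and 25.4 RPKM in WT cells. This was a log2 change of 1.30 (SE 0.16, adjusted p = 0.00041). For Polr1a, which encodes the largest subunit of Pol I, it was 0.54 (SE 0.13, adjusted p = 0.00927), but it was not called on deposited RPKM (0.15, adjusted p = 0.309) or without the WT library of 120 min (adjusted p = 0.0575). The other shared subunit, Polr1d, had a log2 change of 0.11 (SE 0.13, adjusted p = 0.51), and the second largest subunit, Polr1b, one of -0.16 (SE 0.13, adjusted p = 0.322). Polr1b was called lower on deposited RPKM, at -0.53 (adjusted p = 0.00669).

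The small subunit factors, which cut and assemble the part of the precursor that becomes 18S rRNA, were the largest group, and 16 of 29 rose while 2 fell. Their median log2 change was 0.45. On deposited RPKM 8 were called higher and 4 lower. Nop14, needed for 18S rRNA maturation in yeast, had 46.7 RPKM at 120 min, against 23.4 and 19.8 RPKM without stimulation, in Ikaros-Zn4-/- cells, and 37.3 RPKM against 22.3 and 25.6 RPKM in WT cells. Both 120 min libraries lay above all 4 of 0 min, with a log2 change of 1.25 (SE 0.14, adjusted p = 0.000315). Among the others, the log2 change was 1.10 (SE 0.14, adjusted p = 0.000586) for Rcl1, 1.04 (SE 0.12, adjusted p = 0.000345) for Rrp12, and 0.80 (SE 0.09, adjusted p = 0.000342) for Nob1, the endonuclease that makes the final cut at the 3′ end of 18S rRNA. For Wdr43, a component that binds the precursor early, it was 0.82 (SE 0.10, adjusted p = 0.000394). Of the 4 members of this group with the highest mean level, 2 did not pass the test: Utp3 had a log2 change of 0.19 (SE 0.15, adjusted p = 0.291), and Rrp9, a protein of the U3 snoRNP, one of 0.41 (SE 0.15, adjusted p = 0.0519). The 2 falls were Tsr2 and Utp14a. Utp14a had a log2 change of -0.40 (SE 0.14, adjusted p = 0.04), and leaving out any of 6 libraries ended that call, with adjusted p-values of 0.0619 to 0.242.

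**Figure D2:**
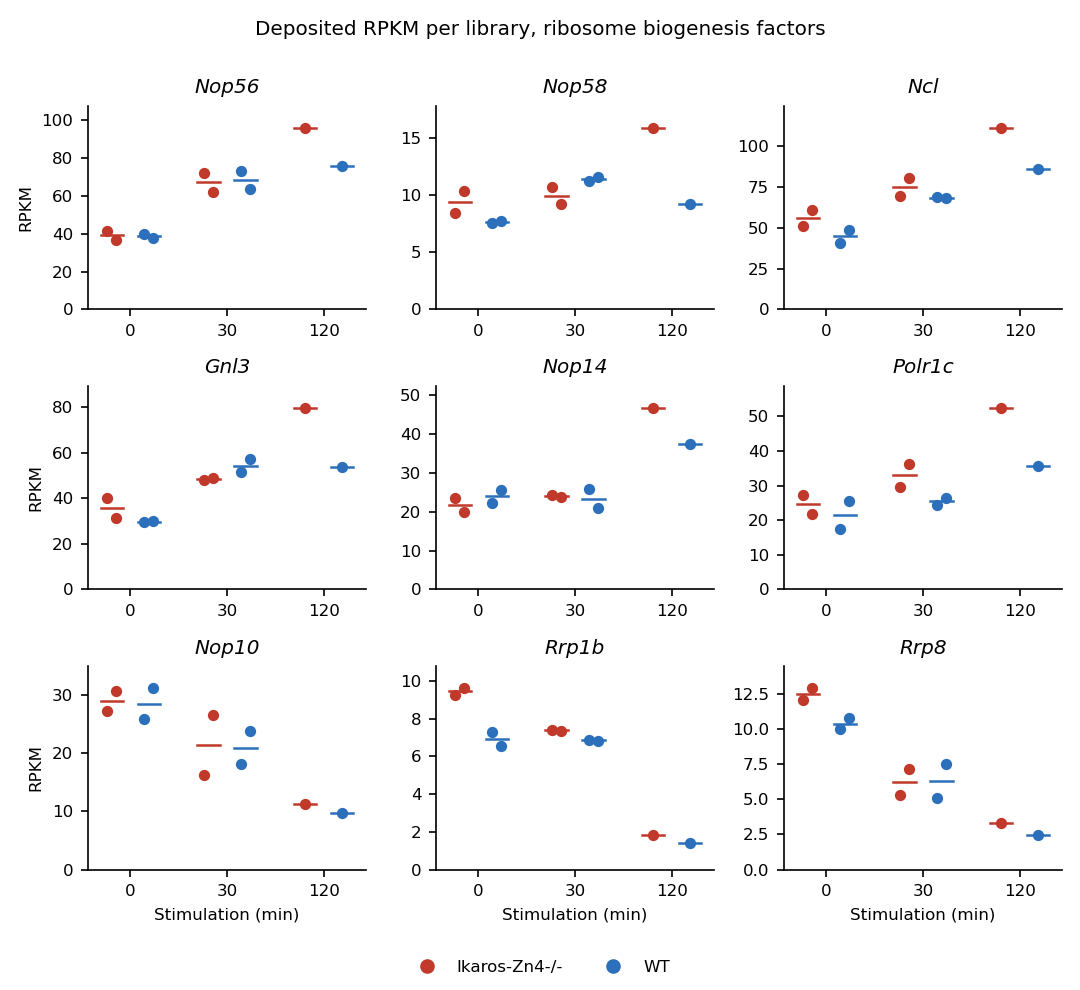
Deposited RPKM of 9 members by minutes of stimulation, Ikaros-Zn4-/- (red) left of WT (blue); each point is 1 library and each line the mean of its group. Nop56, Ncl, Gnl3, Nop14 and Polr1c are higher in both 120 min libraries than in any library of 0 min, Nop58 overlaps, and Nop10, Rrp1b and Rrp8 are lower in both.

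The large subunit factors, which assemble the part with 28S and 5.8S rRNA, were divided: 6 of 20 rose and 6 fell, with a median log2 change of -0.06. On deposited RPKM 5 were called higher and 9 lower. Gnl3 encodes the nucleolar GTP-binding protein nucleostemin (chromosome 14, 31012433 to 31019152). It had 79.8 RPKM at 120 min, against 40.0 and 31.2 RPKM without stimulation, in Ikaros-Zn4-/- cells, and 53.6 RPKM against 29.6 and 30.0 RPKM in WT cells, with a log2 change of 1.39 (SE 0.13, adjusted p = 0.000141). Nop2, a methyltransferase of 28S rRNA (chromosome 6, 125131909 to 125144753), had 90.1 RPKM at 120 min, against 43.1 and 44.2 RPKM without stimulation, in Ikaros-Zn4-/- cells, and 44.0 RPKM against 31.3 and 32.3 RPKM in WT cells. Each 120 min library of Nop2 was above the 0 min libraries of its own genotype, but the WT library of 120 min lay between the 2 Ikaros-Zn4-/- libraries of 0 min. The log2 change was 1.15 (SE 0.09, adjusted p = 8.27e-05). The other rises were those of Nol8 (log2 change 1.17), Nip7 (0.98), Gnl2 (0.81) and Nol9 (0.66).

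Rrp1b, a nucleolar homologue of the yeast large subunit factor Rrp1, fell most of all members. It had 1.81 RPKM at 120 min, against 9.26 and 9.63 RPKM without stimulation, in Ikaros-Zn4-/- cells, and 1.40 RPKM against 7.28 and 6.54 RPKM in WT cells. On the log2 scale it changed by -1.51 (SE 0.12, adjusted p = 7.6e-05). Its paralog Rrp1 had the highest mean RPKM of the members. It had 69.9 RPKM at 120 min, against 108 and 103 RPKM without stimulation, in Ikaros-Zn4-/- cells, and 105 RPKM against 103 and 110 RPKM in WT cells. The low Ikaros-Zn4-/- library of 120 min stood alone, and the log2 change over both genotypes was 0.10 (SE 0.09, adjusted p = 0.379); with quantile normalization it was -0.29 (adjusted p = 0.0358), the opposite sign.

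Rrp8, a methyltransferase of the large subunit rRNA, fell to 3.29 RPKM at 120 min, against 12.1 and 12.9 RPKM without stimulation, in Ikaros-Zn4-/- cells, and to 2.48 RPKM, against 10 and 10.8 RPKM, in WT cells. The log2 change was -1.35 (SE 0.15, adjusted p = 0.000296). Ebna1bp2, a homologue of yeast Ebp2, had 8.62 RPKM at 120 min, against 18.4 and 21.7 RPKM without stimulation, in Ikaros-Zn4-/- cells, and 6.65 RPKM against 15.5 and 17.2 RPKM in WT cells. Its log2 change was -0.77 (SE 0.10, adjusted p = 0.000691). Noc2l, an abundant member, had 36.1 RPKM at 120 min, against 78.0 and 65.98 RPKM without stimulation, in Ikaros-Zn4-/- cells, and 34.6 RPKM against 68.8 and 63.8 RPKM in WT cells, with a log2 change of -0.54 (SE 0.13, adjusted p = 0.00854). These 3 genes were lower in both 120 min libraries than in all 4 libraries of 0 min. Rrp8 shares 355 exon bases with Ilk and Noc2l shares 598 with Samd11, both on the opposite strand. The remaining falls were those of Gnl3l (-0.52) and Rrp15 (-0.43). The call of Gnl3l was lost without the Ikaros-Zn4-/- library of 120 min (adjusted p = 0.229) and that of Rrp15 without the WT library of 120 min (adjusted p = 0.19). Pes1, Bop1 and Wdr12, which form 1 complex in large subunit maturation, had log2 changes of 0.05, -0.29 and -0.18, and none was called. Bop1 was called lower by limma on deposited RPKM (-0.69, adjusted p = 0.00649) and with quantile normalization (-0.66, adjusted p = 0.00577).

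The rule also matched 3 genes whose role in ribosome synthesis is uncertain or different. Gnl1, a GTP-binding protein, rose (log2 change 1.03, SE 0.10, adjusted p = 0.000167), and Nol7 fell (-0.60, SE 0.13, adjusted p = 0.0068). Gnl1 shares 12.5% of its exon bases with Prr3 and Nol7 shares 16.5% with Ranbp9, both on the opposite strand. Nol4l, named for its likeness to Nol4, had too low a mean level to be tested. It had 2.48 RPKM in the Ikaros-Zn4-/- library and 0.786 RPKM in the WT library of 120 min, and at most 0.247 RPKM in the 8 earlier libraries. Every gene in the table reaches a group mean of at least 1 RPKM, and Nol4l did so only in that 1 Ikaros-Zn4-/- library. The contrast therefore cannot be set apart from its being listed.

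**Figure D3:**
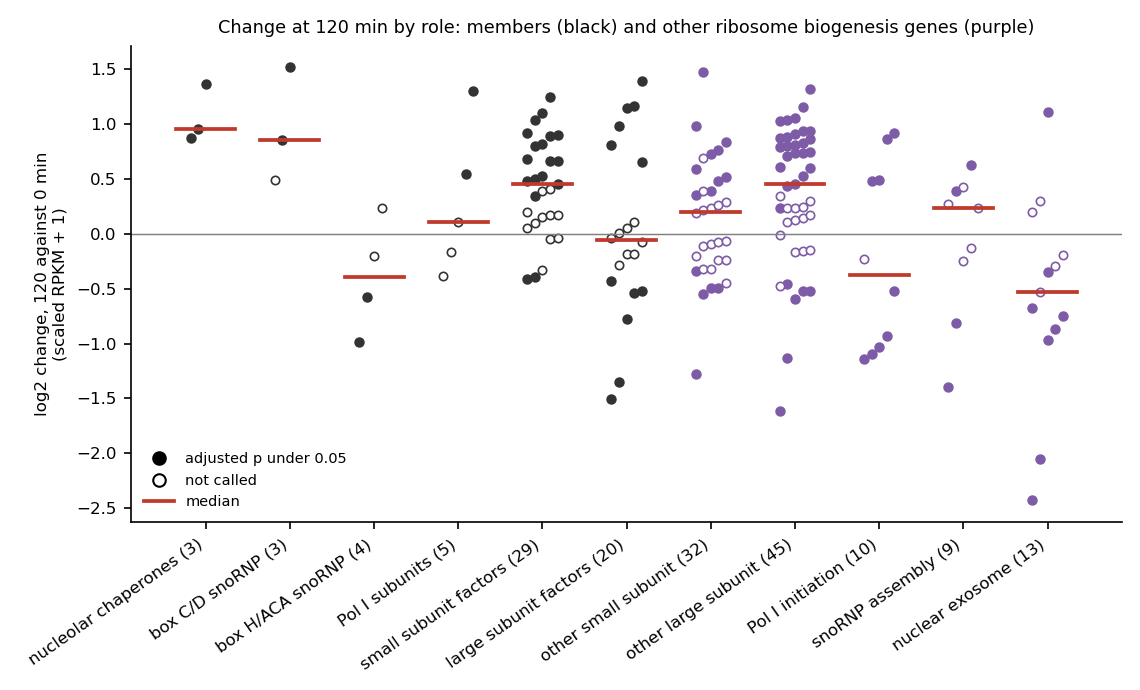
Log2 change at 120 min against 0 min (scaled RPKM + 1, both genotypes) of each gene, by role, for the members (black) and other ribosome biogenesis genes (purple), with the number of genes tested in parentheses; filled points passed an adjusted p of 0.05 and red lines are medians. The chaperones and box C/D proteins have the highest medians, at 0.96 and 0.85, and the nuclear exosome the lowest, at -0.53.

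Ribosome biogenesis genes with other names were set beside the members. Of 109 such genes, 42 rose (38.5%) and 25 fell (22.9%) at 120 min, with a median log2 change of 0.23. Among all genes tested, 29.9% rose and 29.9% fell. On deposited RPKM 20 of the 109 were called higher and 44 lower, against 19.3% and 40.4% of all genes. Other large subunit factors had 25 of 45 higher and 6 lower, with a median of 0.45, and other small subunit factors had 10 of 32 higher and 5 lower, with a median of 0.20. Among the genes that start Pol I transcription or belong to Pol I under other names, 4 of 10 rose and 5 fell. Of 9 snoRNP assembly factors, 2 rose and 2 fell. Of 13 genes of the nuclear exosome, the complex that trims RNA from its 3′ end, and its cofactors, 1 rose and 7 fell. The largest rises were those of Cirh1a (log2 change 1.47), Sbds (1.32), Las1l (1.15), Skiv2l2 (1.11) and Urb2 (1.05), and the largest falls those of Exosc5 (-2.43), Exosc7 (-2.05) and Nvl (-1.61). Exosc5 had 4.85 RPKM at 120 min, against 25.3 and 50.01 RPKM without stimulation, in Ikaros-Zn4-/- cells, and 5.09 RPKM against 44.9 and 47.2 RPKM in WT cells. These 8 genes kept their call on deposited RPKM, with adjusted p-values of at most 0.00171, and Skiv2l2, an RNA helicase that serves the exosome, was the exosome gene that rose.

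At 30 min against 0 min, 10 of the 66 members rose (15.2%) and 5 fell (7.58%), where 9.16% of all genes tested rose and 6.84% fell. The median log2 change of the members was -0.02. The 3 box C/D proteins were among those that rose. The count rested on many libraries: leaving out any of the 8 libraries of 0 or 30 min left 5 or 6 rises. The 5 rises of Nop56, Ncl, Gnl3, Tsr2 and Utp14b were called in each of these cases and with all 3 scalings. On deposited RPKM 5 members were called higher and 9 lower (6.51% and 12.5% of all genes), and none of the 5 falls kept its call without each library. Deposited values of the 2 times did not overlap for 5 members higher at 30 min and 10 lower, where this held for 6.92% and 15.0% of all genes. Taken alone, Ikaros-Zn4-/- cells had 1 member higher and none lower (2.07% and 0.656% of all genes), and WT cells had 6 higher and none lower (5.15% and 2.08%). With limma-voom on recovered reads, Ikaros-Zn4-/- cells had 5 members higher and 3 lower (4.67% and 2.48% of all genes), and WT cells had 9 higher and 1 lower (8.29% and 4.48%). No member was left in WT cells without any 1 of the 4 WT libraries of 0 and 30 min, and none in Ikaros-Zn4-/- cells without any 1 of their 4 or without either WT library of 30 min.

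Nop56 had 71.9 and 62.3 RPKM at 30 min, against 41.6 and 36.5 RPKM without stimulation, in Ikaros-Zn4-/- cells, and 73.0 and 63.6 RPKM against 40.0 and 37.8 RPKM in WT cells. The times did not overlap, and the log2 change was 0.92 (SE 0.12, adjusted p = 0.00475). Gnl3 had 48.2 and 49.0 RPKM at 30 min, against 40.0 and 31.2 RPKM without stimulation, in Ikaros-Zn4-/- cells, and 51.7 and 57.1 RPKM against 29.6 and 30.0 RPKM in WT cells, a log2 change of 0.79 (SE 0.11, adjusted p = 0.00547). For Ncl the values were 69.3 and 80.4 RPKM after 30 min in Ikaros-Zn4-/- cells and 68.6 and 68.6 RPKM in WT cells, all above the 0 min libraries given before, and the log2 change was 0.65 (SE 0.08, adjusted p = 0.00486). Of these 3 genes, each changed further in the same direction between 30 and 120 min on the scaled values, with log2 changes of 0.60 (adjusted p = 0.0129) for Nop56, 0.60 (adjusted p = 0.00762) for Gnl3 and 0.71 (adjusted p = 0.00148) for Ncl.

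Tsr2 and Utp14b were highest at 30 min. Tsr2, whose yeast homologue escorts a small subunit ribosomal protein, had 4.22 and 4.55 RPKM unstimulated, 6.01 and 7.25 RPKM after 30 min and 1.83 RPKM after 120 min in Ikaros-Zn4-/- cells. In WT cells it had 3.74 and 3.52 RPKM unstimulated, 7.30 and 6.10 RPKM after 30 min and 2.28 RPKM after 120 min. The 3 times did not overlap. Against 0 min the log2 change was 0.73 at 30 min (SE 0.11, adjusted p = 0.00817) and -0.41 at 120 min (SE 0.14, adjusted p = 0.0342), and at 120 min against 30 min it was -1.14 (adjusted p = 0.000639). The fall below the 0 min level was lost without the Ikaros-Zn4-/- library of 120 min (adjusted p = 0.392) or without any 1 library of 0 min (adjusted p = 0.0531 to 0.0926). It was not called with quantile normalization either (-0.23, adjusted p = 0.193). Tsr2 shares 1151 exon bases with Fgd1 on the opposite strand, and without strand information reads there cannot be assigned.

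Utp14b is a copy of the small subunit factor gene Utp14a, so reads of the pair may not have been separable. It had 0.703 and 0.0578 RPKM unstimulated, 2.99 and 1.96 RPKM after 30 min and 1.15 RPKM after 120 min in Ikaros-Zn4-/- cells. In WT cells it had 0.643 and 0.322 RPKM unstimulated, 3.06 and 2.69 RPKM after 30 min and 1.45 RPKM after 120 min. All 4 libraries of 30 min lay above the other 6. Every gene in the table reaches a group mean of at least 1 RPKM, and Utp14b did so only after stimulation. Its rise is therefore not independent of its being listed. On the log2 scale the change was 1.40 at 30 min (SE 0.20, adjusted p = 0.00704) and 0.89 at 120 min (SE 0.25, adjusted p = 0.0183). The rise at 120 min was lost without either 120 min library (adjusted p = 0.0704 without that of Ikaros-Zn4-/- cells and 0.0855 without that of WT cells) and without WT replicate 2 of 0 min (adjusted p = 0.0505). Utp14b shares exon bases with Acsl3 on the same strand. Acsl3 had 9.003 RPKM in the Ikaros-Zn4-/- and 8.44 RPKM in the WT library of 120 min, 1.75 to 3.66 RPKM after 30 min and 0.866 to 1.29 RPKM unstimulated, so the order of its times differed from that of Utp14b; the part of shared reads in the values of Utp14b was not tested.

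**Figure D4:**
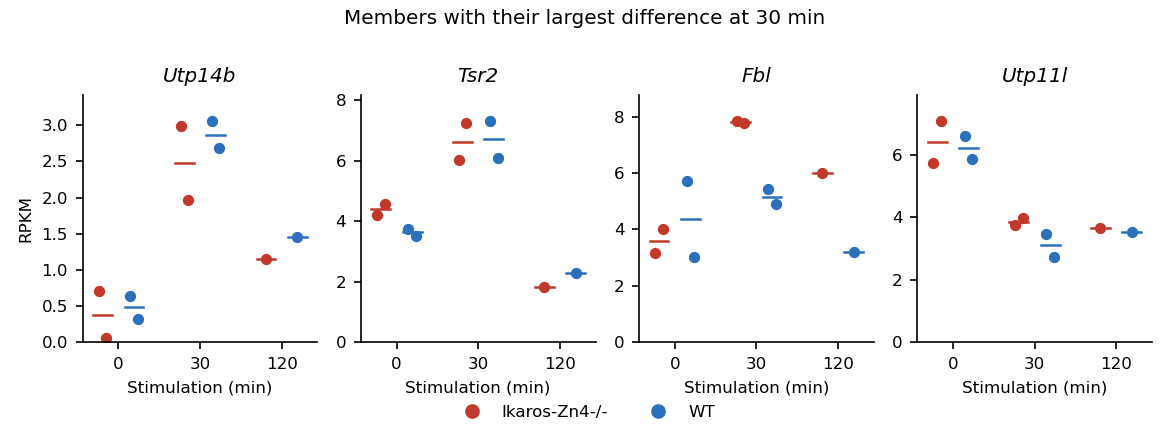
Deposited RPKM of Utp14b, Tsr2, Fbl and Utp11l by minutes of stimulation, Ikaros-Zn4-/- (red) left of WT (blue); each point is 1 library and each line the mean of its group. Utp14b and Tsr2 peak in all 4 libraries of 30 min, Fbl overlaps between times, and Utp11l is below its 0 min libraries at 30 and 120 min.

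The other rises at 30 min were those of Nop58, Fbl, Polr1c, Utp18 and Wdr43, with log2 changes of 0.32 to 0.71 and adjusted p-values of 0.0297 to 0.0483. Each was lost without 7 or 8 of the libraries of 0 and 30 min, taken 1 at a time (adjusted p = 0.0515 to 0.135 where lost), and none of the 5 was called with all 3 scalings. Fbl had 7.84 and 7.78 RPKM after 30 min in Ikaros-Zn4-/- cells and 5.43 and 4.89 RPKM in WT cells, so that WT cells at 30 min lay below 1 of the WT libraries of 0 min. The falls at 30 min were those of Rrp8 (log2 change -0.65, SE 0.12, adjusted p = 0.0161), Utp11l (-0.58, SE 0.12, adjusted p = 0.0213), Bysl (-0.46, SE 0.11, adjusted p = 0.035), Nol12 (-0.41, SE 0.11, adjusted p = 0.0484) and Ebna1bp2 (-0.32, SE 0.09, adjusted p = 0.0487). Adjusted p-values were 0.0506 to 0.149 where leaving out a library ended one of these falls. Rrp8 had 5.28 and 7.17 RPKM after 30 min in Ikaros-Zn4-/- cells and 5.11 and 7.50 RPKM in WT cells, all below its 0 min libraries. Utp11l, a small subunit factor, had 3.75 and 3.97 RPKM at 30 min, against 5.73 and 7.07 RPKM without stimulation, in Ikaros-Zn4-/- cells, and 3.46 and 2.73 RPKM against 6.58 and 5.88 RPKM in WT cells. Its values did not overlap between these times.

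Between 30 and 120 min, 29 members rose and 9 fell, where 25.7% of all genes rose and 24.9% fell. Nol8, Nop2 and Nip7, all large subunit factors, led these rises with log2 changes of 1.45 (adjusted p = 0.000193), 1.32 (adjusted p = 0.00014) and 1.27 (adjusted p = 0.000587). None of the 3 had been called at 30 min, where their log2 changes were -0.28, -0.18 and -0.29, but on deposited RPKM Nol8 (-0.42, adjusted p = 0.0477) and Nop2 (-0.32, adjusted p = 0.0439) were called lower at 30 min. Nop2 had 31.1 and 36.9 RPKM after 30 min in Ikaros-Zn4-/- cells and 25.9 and 26.1 RPKM in WT cells, below the 0 min libraries of each genotype. Without the Ikaros-Zn4-/- library of 120 min 15 members were called higher, and without the WT library 5 were called lower.

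Promoter sequence is shown for 6 of the members that rose at 120 min, to set 4 that hold the E-box CACGTG, a motif bound by Myc and other proteins with a basic helix-loop-helix, beside the strongest risers that do not. The 6 were chosen after their values were seen. RefSeq promoters (GRCm38.p6, 250 bases before to 50 after each start) were found for 56 of the 67 members, some with several starts. The letters CACGTG, which read the same on both strands, stood in 12 of 64 windows of members (18.8%), in 10.5% of 9756 windows of tested genes and in 7.15% of all 32851 windows. The sequences run 5′ to 3′ on the strand of the gene, from 120 bases before the start to 30 from it onward, with the motif in capitals. They lie at chr6:125131763-125131912 (Nop2, plus strand), chr11:107189352-107189501 (Nol11, minus), chr11:93885737-93885886 (Utp18, minus), chr17:71616095-71616244 (Wdr43, plus), chr2:130274292-130274441 (Nop56, plus) and chr14:31019102-31019251 (Gnl3, minus).
Nop2: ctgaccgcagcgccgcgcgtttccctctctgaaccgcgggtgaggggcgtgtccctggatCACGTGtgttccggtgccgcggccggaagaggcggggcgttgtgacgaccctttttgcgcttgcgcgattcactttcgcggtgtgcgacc
Nol11: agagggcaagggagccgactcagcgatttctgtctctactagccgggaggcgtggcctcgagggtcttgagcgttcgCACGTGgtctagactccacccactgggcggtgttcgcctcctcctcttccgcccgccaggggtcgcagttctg
Utp18: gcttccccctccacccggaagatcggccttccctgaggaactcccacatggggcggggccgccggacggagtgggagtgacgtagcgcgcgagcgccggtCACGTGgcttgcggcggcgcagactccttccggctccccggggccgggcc
Wdr43: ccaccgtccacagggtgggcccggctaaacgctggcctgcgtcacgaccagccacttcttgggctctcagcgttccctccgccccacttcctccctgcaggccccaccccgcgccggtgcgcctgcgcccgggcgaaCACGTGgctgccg
Nop56: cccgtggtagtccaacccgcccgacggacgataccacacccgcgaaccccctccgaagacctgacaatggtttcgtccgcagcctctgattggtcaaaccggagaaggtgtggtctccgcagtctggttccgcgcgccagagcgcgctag
Gnl3: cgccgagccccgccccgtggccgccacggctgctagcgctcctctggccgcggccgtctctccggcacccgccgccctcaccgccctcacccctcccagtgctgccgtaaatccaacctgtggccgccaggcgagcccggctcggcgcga
The motif begins 60 bases before the start in Nop2, 43 before it in Nol11 and 20 before it in Utp18, and lies after the start in Wdr43. Nop56 and Gnl3, which both rose at 120 min, hold no CACGTG in their 300-base windows. Of the 12 members with a motif, 7 rose and 1 fell at 120 min, and of the 43 tested members with windows and no motif, 18 rose and 9 fell. A match of 6 letters is a description of the sequence and was not tied to binding.

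Another feature that the rule did not use is that some members carry small nucleolar RNA genes inside their own transcription unit on the same strand. In GENCODE M21 this held for 7 of the 67 members (10.4%), namely Dkc1, Gnl3, Ncl, Nop56, Nop58, Tsr1 and Wdr43, and for 178 of the 9681 protein-coding genes tested (1.84%). Of the 7 hosts, 6 rose at 120 min, and Dkc1 fell; the rise of Tsr1 was not called without the Ikaros-Zn4-/- library of 120 min (adjusted p = 0.0547). Among all genes tested, 29.9% rose at 120 min and 29.9% fell, and the share among host genes outside the members was not computed. Tsr1 shares 32.3% of its exon bases with Srr on the opposite strand. Nop56 holds 5 small nucleolar RNA genes and Nop58 holds 4. The deposited values cover the host genes, and the small nucleolar RNAs were not analysed here.

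Between genotypes, 5 of 66 members (7.58%) were higher in Ikaros-Zn4-/- cells over all times and none was lower, where 6.10% of all genes were higher and 4.08% lower. The median log2 difference between Ikaros-Zn4-/- and WT cells was 0.11, against -0.02 for all genes, and 54 of the 66 were positive. At 0 min alone the median was 0.12 with 50 of 66 positive, and at 30 min alone it was 0.03 with 36 of 66 positive, against -0.01 and -0.02 for all genes. Over all 10 libraries no member had every Ikaros-Zn4-/- value above or every one below all WT values, where 2.70% of all genes were wholly higher and 0.844% wholly lower. Bysl, a small subunit factor called Enp1 in yeast (chromosome 17, 47599331 to 47611492), had in Ikaros-Zn4-/- cells 10.3 and 10.5 RPKM unstimulated, 6.06 and 8.05 RPKM after 30 min and 7.95 RPKM after 120 min. In WT cells it had 6.55 and 7.50 RPKM unstimulated, 4.47 and 3.66 RPKM after 30 min and 4.89 RPKM after 120 min. The genotypes did not overlap at any time, and the log2 difference was 0.56 (SE 0.09, adjusted p = 0.0055), called without each library. Bysl shares 361 exon bases, 9.37% of its own, with Ccnd3 on the opposite strand, a gene at 6.64 to 22.5 RPKM.

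Nop2 had a log2 difference of 0.49 (SE 0.11, adjusted p = 0.0238), and its values of all 3 times, given before, were higher in Ikaros-Zn4-/- than in WT cells without overlap within a time. Its call was lost without Ikaros-Zn4-/- replicate 2 of 0 min (adjusted p = 0.0511), Ikaros-Zn4-/- replicate 2 of 30 min (adjusted p = 0.0503) or WT replicate 2 of 0 min (adjusted p = 0.0589). Pno1, a partner of the endonuclease Nob1, had 9.96 and 12.8 RPKM unstimulated, 10.01 and 10.7 RPKM after 30 min and 8.54 RPKM after 120 min in Ikaros-Zn4-/- cells. In WT cells it had 6.83 and 9.04 RPKM unstimulated, 6.98 and 5.90 RPKM after 30 min and 7.71 RPKM after 120 min. Within each time all Ikaros-Zn4-/- values were higher, and the log2 difference was 0.43 (SE 0.11, adjusted p = 0.0359). For Pes1 it was 0.31 (SE 0.08, adjusted p = 0.0376), and on deposited RPKM it was not called (0.35, adjusted p = 0.058). For Ebna1bp2 it was 0.29 (SE 0.07, adjusted p = 0.0374). Pno1 lost its call without any of 7 libraries (adjusted p = 0.056 to 0.097), Ebna1bp2 without any of 8 (0.0757 to 0.0962) and Pes1 without any of 9 (0.0534 to 0.108).

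**Figure D5:**
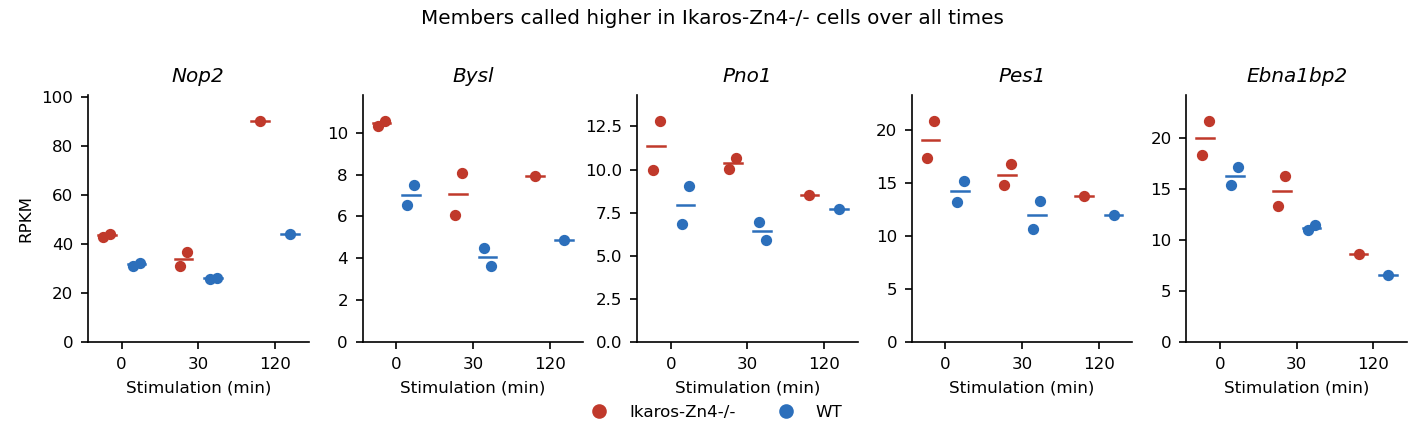
Deposited RPKM of the 5 members called higher in Ikaros-Zn4-/- cells over all times, by minutes of stimulation, Ikaros-Zn4-/- (red) left of WT (blue); each point is 1 library and each line the mean of its group. Within each time the Ikaros-Zn4-/- points lie above the WT points for Nop2, Bysl, Pno1, Pes1 and Ebna1bp2.

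Markers of other cells also differed between genotypes. Of 5 B cell markers, Cd74, Cd79b and Cd79a were in the table. Their summed level in Ikaros-Zn4-/- cells was 29.8 to 30.3 RPKM unstimulated, 30.2 to 43.3 RPKM after 30 min and 49.4 RPKM after 120 min. In WT cells it was 15.0 to 16.1 RPKM unstimulated, 9.61 to 11.0 RPKM after 30 min and 11.8 RPKM after 120 min. Their part in the higher values of the 5 members was not tested. None of the CD4 T cell, NK cell or erythroid markers looked for was in the table, and 3 of 4 myeloid markers summed to 8.14 to 34.2 RPKM over the libraries.

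Tested at 0 min or at 30 min alone, no member was called between the genotypes, where 1.90% of all genes were higher and 0.582% lower at 0 min, and 2.07% higher and 0.893% lower at 30 min. At an unadjusted p under 0.05 there were 6 such members at 0 min (9.09%, against 14.5% of all genes) and 9 at 30 min (13.6%, against 18.9% of all genes), and limma-voom on recovered reads called none. At 120 min each genotype has 1 library, so the difference there could only be tested through the spread of the other groups. In the interaction of genotype and stimulation, limma called 0 members and 0 of all genes (0.00%) at 30 min and at 120 min. At an unadjusted p under 0.05 there were 2 members at 30 min (3.03%, against 707 or 5.79% of all genes). At 120 min there were 6 (9.09%, against 756 or 6.20% of all genes), and limma-voom called no member at either time. Taken alone, Ikaros-Zn4-/- cells had 27 members higher and 8 lower at 120 min (24.1% and 22.8% of all genes), and WT cells 22 higher and 8 lower (23.1% and 21.7%). On deposited RPKM these counts were 17 higher and 16 lower in Ikaros-Zn4-/- cells and 7 higher and 12 lower in WT cells. The median log2 change of all genes on that scale was -0.35 in Ikaros-Zn4-/- and -0.29 in WT cells. Shares of all genes called there were not computed, so these counts have no background beside them.

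The response of Nop2 at 120 min was 1.47 in Ikaros-Zn4-/- cells and 0.83 in WT cells as a log2 change, an interaction of 0.63 (SE 0.18, adjusted p = 0.703). This was the lowest interaction p among the members. For Fbl the responses were 0.98 in Ikaros-Zn4-/- cells and -0.01 in WT cells (interaction 0.98, adjusted p = 0.812), and for Gar1 0.64 in Ikaros-Zn4-/- cells and -0.18 in WT cells (interaction 0.82, adjusted p = 0.714). These differences rest on 1 library per genotype at 120 min, and none passed the adjustment over all genes tested.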

How the data were processed

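Single-end libraries were prepared from total RNA with a TruSeq v2 kit, per the labels' protocols; this kit keeps no strand information. The authors deposited RPKM values, 1 column per library; per the submitters' processing notes the tools include TopHat2 2.0.12 and HTSeq 0.6.1 and the builds mm10 and GRCm38. For the annotation version, counting options and gene filter: not given in the sources used here. Every gene reaches a group mean of at least 1 RPKM. Without strand, reads of overlapping genes cannot be told apart: 28 members share exon bases with a gene on the opposite strand, 10 of them over at least 10% of their exon bases.

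Of the gene IDs, 12567 were in GENCODE M21 and 70 were not. With its exon lengths, 55.1% to 71.2% of values below 200 reads fell within 0.01 of a whole read, which gave the depths; reads summed to 94.0% to 101% of them. Replicates correlated at r 0.959 to 0.971 (across genes, which are not independent) and differed by a mean chi-square of 12.0 to 18.2 per gene, beyond sampling noise. Each group therefore kept all its libraries.

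RPKM was divided by median ratio factors (0.835 to 1.16) and tested as log2(value + 1) for the 12203 genes averaging 0.5 RPKM or more, with limma 3.58.1 in R 4.3.3. The model had 1 mean per group over all 10 libraries and an intensity trend, and each lone 120 min library was assumed to vary as much as libraries of other groups. A model with additive genotype and time terms gave the genotype difference over all times. Tests were two-sided, and fold changes of low genes are understated by the pseudocount of 1. The script was tested on simulated data. Alternatives were deposited or quantile scaling, a pseudocount of 0.1, no filter or a mean of at least 2 RPKM, each library left out, a replicate block, spread from the compared times only, and limma-voom on recovered reads. With a 120 min library left out, comparisons of 120 min over both genotypes became those of the other genotype alone.

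Members, role classes and lists were chosen with earlier results of these data known; roles were assigned by hand. Named with values were the 4 highest members by mean RPKM in each class, the 5 largest rises and falls called at 30 and 120 min, members called between genotypes, and of the 109 other genes the 5 largest rises and 3 largest falls; further members are named to account for their group. Figures used Python 3.11.15 and matplotlib 3.10.9.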

Additional observations from a re-analysis of the deposited data

How the results depend on the processing

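On deposited RPKM the members called were 19 higher and 19 lower at 120 min against 0 min, 5 higher and 9 lower at 30 min against 0 min, and 17 higher at 120 min against 30 min. The deposited scale differs from the main one by a shift common to most genes. At 120 min against 30 min the median log2 change of all genes on it was -0.22. The members called lower in that comparison on deposited RPKM are not counted here. Shares of all genes called there are not given either, so the count of 17 has no background beside it. Among named changes called on either scale, 1 reversed its sign, that of Rrp1 at 120 min, which was -0.29 with quantile normalization. Named changes that were not called also changed sign. On deposited RPKM, Polr1d was -0.29, Utp3 -0.21, Gar1 -0.14 and Rrp1 -0.30 at 120 min, where the main fit gave 0.11, 0.19, 0.23 and 0.10. The 2 filters, the pseudocount of 0.1, the spread from the compared times and limma-voom left the counts of called members over both genotypes, and between genotypes over all times, within 1.5 times; the spread from the compared times gives no value for the genotype difference over all times. Leaving out each library gave 22 to 30 members higher and 8 to 11 lower at 120 min against 0 min, 5 to 10 higher and 0 to 7 lower at 30 min against 0 min, and 15 to 29 higher and 5 to 9 lower at 120 min against 30 min. For the genotype difference over all times it gave 1 to 5 higher. It gave 1 higher without Ikaros-Zn4-/- replicate 2 of 0 min, without Ikaros-Zn4-/- replicate 2 of 30 min or without WT replicate 2 of 0 min, and 2 higher without WT replicate 1 of 0 min or of 30 min. It gave 3 higher without WT replicate 2 of 30 min or without either 120 min library. Replicate differences correlated at 0.0322 between WT cells at 30 min and Ikaros-Zn4-/- cells at 0 min, and at 0.156 to 0.228 between the other groups. The replicate numbers were not taken as pairs in the main fit, since not all correlations were above 0.1. Both 120 min libraries have number 2 in their descriptions, though the title of the Ikaros-Zn4-/- one gives number 1. An effect of replicate number would therefore enter the changes at 120 min, and its part in them was not tested. With the replicate block 8 members were lower at 30 min and 1 was lower in Ikaros-Zn4-/- cells over all times. Within 1 genotype, at 30 min against 0 min, the replicate block gave 3 higher and 2 lower in Ikaros-Zn4-/- cells and 10 higher and 2 lower in WT cells. Shares of all genes called with the replicate block are not given here, so its counts have no background beside them. Depth limits members under about 1 RPKM, such as Utp14b at 0 min, where 1 read on 1 kb is up to 0.222 RPKM.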
